A study of Mus musculus with 12 samples.

Results

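The miRNAs miR-23, miR-27 and miR-24 are made from a pair of short gene clusters, each of which carries one copy of each miRNA. They were followed here as 5 miRNA names (miR-23a, miR-23b, miR-27a, miR-27b and miR-24, the last with its pair of genes joined) of the 1087 names annotated, read from 6 hairpin genes. A member's counts are the sequenced small RNAs that match one of its hairpins exactly over their whole length, kept apart for the 5′ and the 3′ arm of the hairpin. These came to 166 distinct sequences (tags) and 200570 counts, or 0.668% of the 30022027 miRNA counts of the series.

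Small RNA of about miRNA length was cut from gels, cloned and sequenced from the hippocampus of male C57BL/6NCrl mice aged 6 to 8 weeks, 1 mouse per library. Of the 12 libraries, 2 came from untreated mice (NT) and 2 each from mice killed 0.5, 1, 3, 6 or 24 h after electroconvulsive shock (ECS), an electric stimulus that makes neurons throughout the brain fire together. Libraries with the suffix -1 belong to a first and those with -2 to a second time course, so that each time point holds 1 library of each. The study found that libraries grouped by time course more tightly than by treatment, and called this a batch effect. It could not tell whether library construction or sequencing was behind this, and judged accurate changes in level unlikely to come from these data. A difference between the time courses thus cannot be assigned to the mice, the cloning or the sequencing. The untreated mice were kept in their home cage, and no allele, drug or transgene is given for any group. With whole hippocampus as the source, fewer cells of a type and less of a miRNA per cell cannot be told apart.

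A miRNA gene is transcribed into a longer RNA whose hairpin is cut out by Drosha and then cut again by Dicer, and one arm of the resulting duplex, the guide, is loaded into an Argonaute protein. The guide finds messenger RNAs mainly through its seed, the stretch of bases behind its first base, and represses them. The miR-23, miR-27 and miR-24 clusters are best known from blood vessels, muscle, fat and blood cells, and all of them are also found in brain, where their main products come from the 3′ arm.

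The mature 3′ arms of the members are shown first because their seeds set the families apart, with the seed (bases 2 to 8) in capitals. RefSeq, read with the build GRCm38.p6, held 10 of the 11 mature products of the members.
miR-23a-3p: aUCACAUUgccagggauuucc
miR-27a-3p: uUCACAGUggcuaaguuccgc
miR-27b-3p: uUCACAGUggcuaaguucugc
miR-24-3p: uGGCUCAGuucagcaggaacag
miR-27a and miR-27b had the same seed and differed over their 21 bases by the substitution C19U alone, with positions counted from 1 at the 5′ end and miR-27a given first. The miR-24-3p sequence was the same from both of its genes.

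The 5′ arms are shown because they differ where the 3′ arms do not, again with bases 2 to 8 in capitals.
miR-23a-5p: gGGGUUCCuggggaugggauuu
miR-23b-5p: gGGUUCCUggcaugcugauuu
miR-27a-5p: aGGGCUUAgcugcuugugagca
miR-27b-5p: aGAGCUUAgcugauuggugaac
miR-24-1-5p: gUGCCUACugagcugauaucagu
miR-24-2-5p: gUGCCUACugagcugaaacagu
The 5′ arms of the 2 miR-24 genes shared a seed and differed further along, so no tag of this arm matched both genes and each gene could be counted alone. The seeds of the miR-27a and miR-27b 5′ arms differed.

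On GRCm38, the first cluster lay on the plus strand of chromosome 8, with Mir23a at chr8:84208518-84208592, Mir27a at chr8:84208672-84208758 and Mir24-2 at chr8:84208815-84208921. It spanned 404 bp from the start of Mir23a to the end of Mir24-2, and no annotated protein-coding gene overlapped it. The last 2 bp of Mir24-2 overlapped the lincRNA gene Gm26532 on the same strand. The second cluster lay on the plus strand of chromosome 13, with Mir23b at chr13:63300484-63300557, Mir27b at chr13:63300712-63300784 and Mir24-1 at chr13:63301208-63301275. It spanned 792 bp within an intron of 2010111I01Rik (Aopep in RefSeq), an aminopeptidase gene read on the same strand, namely intron 15 of its transcript 2010111I01Rik-201, and within an intron of Fancc on the opposite strand. In transcripts of 2010111I01Rik that are not annotated as protein-coding, exons overlapped Mir24-1 in 4 and Mir27b in 1. Opposite each miR-24 gene lay a gene of another miRNA, Mir3074-2 at chr8:84208825-84208907 and Mir3074-1 at chr13:63301199-63301283, both on the minus strand.

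Accepted reads per library ran from 1897490 to 7657222, and miRNA counts from 439336 in 6h-1 to 4282006 in NT-2. NT-1 stood apart from the others before any member is considered, since 51.4% of its miRNA counts were tags of 18 or 19 nt, against 4.54% to 16.9% in the other 5 libraries of the first time course and 0.91% to 3.78% in the second. Results that rest on NT-1 are therefore given with and without it. The pair of libraries of a time point differed far beyond counting error at every time (chi-square per degree of freedom 2053 to 5147), so that neither was a copy of its partner. Neuronal miRNAs were present in all 12 libraries, with miR-124a, the most abundant miRNA of many neurons, at 1.02% to 26.2% of the miRNA counts.

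Together the 5 members made up between 0.343% of the miRNA counts in 3h-2 and 2.41% in NT-1. Without NT-1, their sum lay between 0.623% and 1.10% in the first time course and between 0.343% and 0.676% in the second, so the ranges overlapped. On this scale of percent of miRNA counts, the 3′ arm of miR-27b was the highest arm (mean 0.466% ± 0.349, SD, n = 12), followed by the 3′ arms of miR-24 (0.252% ± 0.125), miR-27a (0.0617% ± 0.0785), miR-23b (0.0182% ± 0.0149) and miR-23a (0.0175% ± 0.0138). The order of the first 3 held within libraries, as miR-27b was above miR-24 in 11 of 12 libraries (0.5h-2 was the exception) and miR-24 above miR-27a in all 12. The miR-23 pair could not be ordered, with miR-23b higher in 7 of 12 libraries. Below them came the 5′ arms of miR-23b (0.0084% ± 0.00562) and miR-24 (0.00562% ± 0.00214). The 5′ arms of miR-27a, miR-27b and miR-23a gathered no more than 121, 108 and 30 counts over all libraries.

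**Figure D1:**
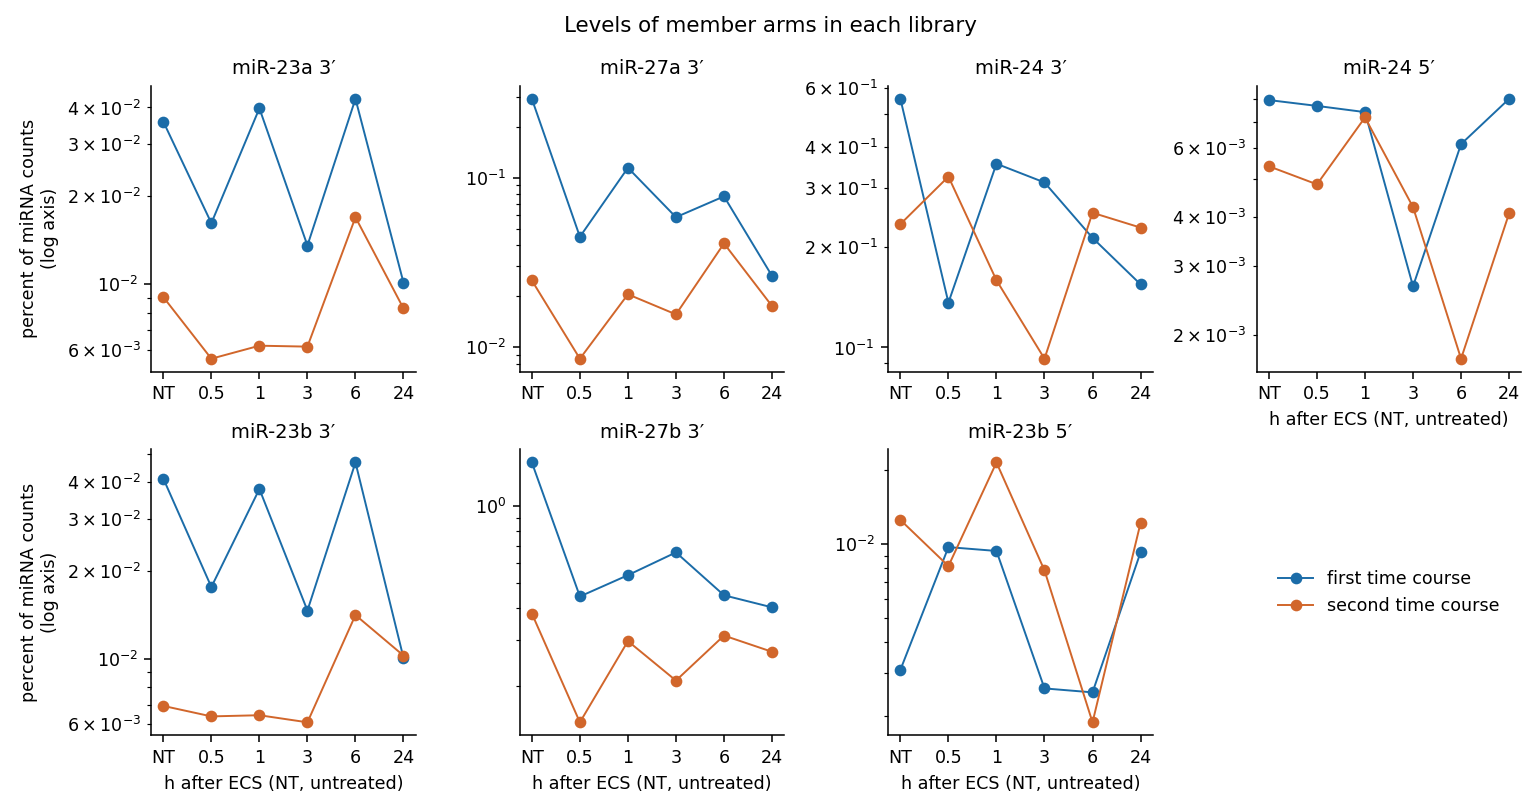
Level of 7 member arms as percent of the miRNA counts (log axis) in each of the 12 libraries, against time after ECS (NT, untreated), with 1 point per library and lines joining the libraries of a time course. The 3′ arms of miR-23a, miR-27a and miR-27b lay lower in the second time course (orange) than in the first (blue) at every time, while the 3′ arm of miR-24 crossed over.

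The 3′ arm of miR-27b, a miRNA known for holding back fat cell formation, made up 1.48% of the miRNA counts in NT-1, 0.445% in 0.5h-1, 0.538% in 1h-1, 0.66% in 3h-1, 0.45% in 6h-1 and 0.404% in 24h-1. In the second time course it made up 0.382% in NT-2, 0.144% in 0.5h-2, 0.298% in 1h-2, 0.209% in 3h-2, 0.313% in 6h-2 and 0.271% in 24h-2. Every library of the first time course thus lay above every library of the second. Its rank among all arms ran from 15 in NT-1 to 59 in 0.5h-2. On this scale of percent, the untreated library was higher than all 5 libraries after ECS in both time courses.

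The 3′ arm of miR-27a, which carries the same seed, was at 0.291% in NT-1, 0.0448% in 0.5h-1, 0.114% in 1h-1, 0.0584% in 3h-1, 0.0775% in 6h-1 and 0.0263% in 24h-1. Its levels in the second time course were 0.0247% in NT-2, 0.00855% in 0.5h-2, 0.0205% in 1h-2, 0.0156% in 3h-2, 0.0409% in 6h-2 and 0.0175% in 24h-2. NT-1 was again the highest library and 6h-2 the highest of the second time course, and the ranges of the time courses overlapped only through 6h-2 and 24h-1. The ratio of miR-27b to miR-27a ran from 4.71 to 15.3 in the first time course and from 7.66 to 16.9 in the second.

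The 3′ arm of miR-24, a miRNA studied for its part in the cell cycle and in vessel growth, was at 0.556% in NT-1, 0.136% in 0.5h-1, 0.355% in 1h-1, 0.312% in 3h-1, 0.213% in 6h-1 and 0.155% in 24h-1. In the second time course it was at 0.234% in NT-2, 0.325% in 0.5h-2, 0.159% in 1h-2, 0.0925% in 3h-2, 0.253% in 6h-2 and 0.229% in 24h-2. The time courses overlapped, and the lowest value of the first and the highest of the second were both at 0.5 h. In miR-24 the second time course was higher in 3 of 6 pairs of libraries of the same time.

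The 3′ arms of miR-23a and miR-23b moved almost as one. miR-23a, on chromosome 8, was at 0.0358% in NT-1, 0.0162% in 0.5h-1, 0.0397% in 1h-1, 0.0136% in 3h-1, 0.0428% in 6h-1 and 0.0101% in 24h-1, and miR-23b, on chromosome 13, at 0.0411%, 0.0176%, 0.0379%, 0.0146%, 0.0467% and 0.0101% in the same libraries. In the second time course miR-23a was at 0.00905%, 0.00558%, 0.00618%, 0.00614%, 0.0169% and 0.00828%, and miR-23b at 0.00692%, 0.00638%, 0.00644%, 0.00609%, 0.0141% and 0.0103%, from NT-2 to 24h-2. NT-1, 1h-1 and 6h-1 were high and 6h-2 was high among the second. The log2 percent of the pair, centred within each time course, had a Pearson r of 0.965 over the 12 libraries, which share depth and cloning and are given as a description. By the same measure miR-27a and miR-27b had an r of 0.854, miR-23a and its cluster neighbour miR-27a one of 0.805, and miR-23b and its neighbour miR-27b one of 0.4. miR-24 had its highest r with a member, 0.572, with miR-27a. Within the miR-23 and the miR-27 pair, an 18 nt tag that matches both paralogs was split evenly, so part of their counts is common by construction. This tag held 11.4% of the counts that match the miR-23a and 14.1% of those that match the miR-27a 3′ arm. Its part in r was not tested.

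The lengths of the tags differed between the time courses in the 3′ arms of miR-27b, miR-24, miR-23a and miR-23b. Of the counts of the miR-27b 3′ arm, tags of 19 nt made up 90.7% in NT-1 and 14.5% to 54.5% in the other libraries of the first time course, against 7.0% to 26.0% in the second. Tags of 22 nt made up 0.199% to 4.78% in the first and 13.7% to 41.8% in the second, with no overlap. In the miR-27a 3′ arm the ranges of the time courses overlapped at each length from 18 to 21 nt. A single tag of 20 nt led it in every library, with 39.6% to 73.6% of its counts in the first and 68.2% to 76.1% in the second time course. For miR-24, the 22 nt tag that equals the mature sequence held 0.641% to 26.6% of the 3′ arm counts in the first time course and 33.5% to 58.0% in the second. Tags of 23 nt made up 0% to 0.177% of the miR-23a and 0% to 3.33% of the miR-23b 3′ arm in the first time course. In the second they made up 2.60% to 7.24% and 4.12% to 18.3%. The leading tags of the miR-27 pair are shown with base 19 in capitals, the only base at which the pair differs.
miR-27b, 19 nt: ttcacagtggctaagttcT
miR-27a, 20 nt: ttcacagtggctaagttcCg
miR-27b, 21 nt: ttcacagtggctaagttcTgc

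**Figure D2:**
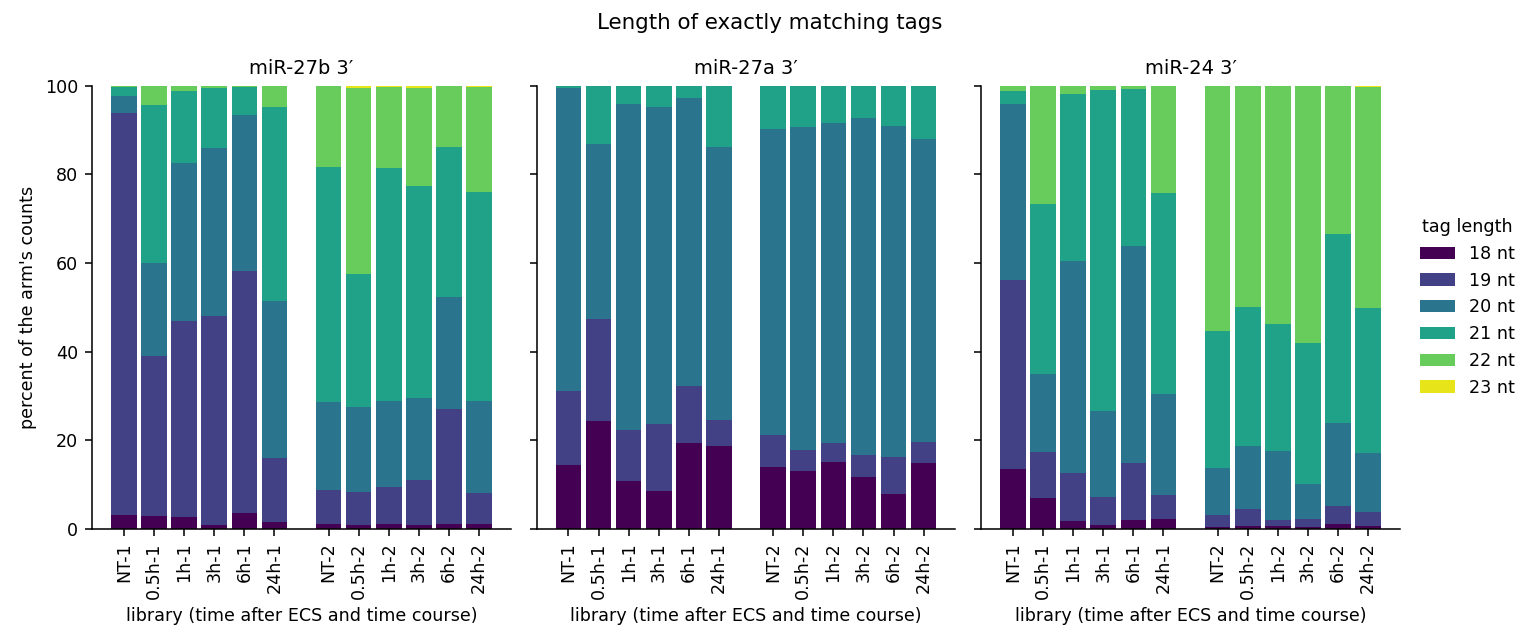
Share of the counts of the miR-27b, miR-27a and miR-24 3′ arms (percent of the arm's counts) held by tags of each length from 18 to 23 nt, with 1 bar per library and the second time course on the right of each panel. miR-27b tags of 19 nt fill 90.7% of the NT-1 bar, while the 20 nt tag leads miR-27a in every library.

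Summed over the paralogs, tags of 18 or 19 nt made up 37.8% ± 22.4 of the miR-23 3′ arm counts in the first time course and 7.94% ± 2.68 in the second (SD, n = 6 each). For miR-27 the values were 46.0% ± 21.8 and 11.7% ± 6.69, and for miR-24 19.3% ± 18.5 and 3.51% ± 1.26. Each of these shares was lower in the second time course in 6 of 6 pairs of the same time (two-sided exact permutation test over the 64 ways to swap the time courses at each time, p = 0.03125, which is the lowest this test can give). Adjusted by Benjamini-Hochberg over the 10 measures tested in this way, p was 0.0781 for each, so none passed 0.05. Without the untreated pair, the differences in percentage points were -21.4 for miR-23, -26.5 for miR-27 and -8.40 for miR-24. For miR-24 the difference over all pairs was -15.8 points, so its size rests in part on NT-1.

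Which miR-27 paralog led depended on the length of the tags in 1 library. Counted by all tags that match 1 paralog, miR-27a made up 15.6% of the miR-27 3′ arm in NT-1 (Wilson 95% interval 15.1% to 16.1%), 16.8% in 1h-1, 13.6% in 6h-1 and 5.55% to 8.05% in the other 3 libraries of the first time course. It made up 11.2% in 6h-2 and 5.24% to 6.56% in the other 5 libraries of the second. Restricted to tags of at least 20 nt, the NT-1 share became 70.0% (68.4% to 71.5%), from 2308 counts of miR-27a and 989 of miR-27b. The other 11 libraries stayed between 5.37% and 24.5% with this restriction. The intervals cover counting error only, since reads were amplified without molecular identifiers.

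**Figure D3:**
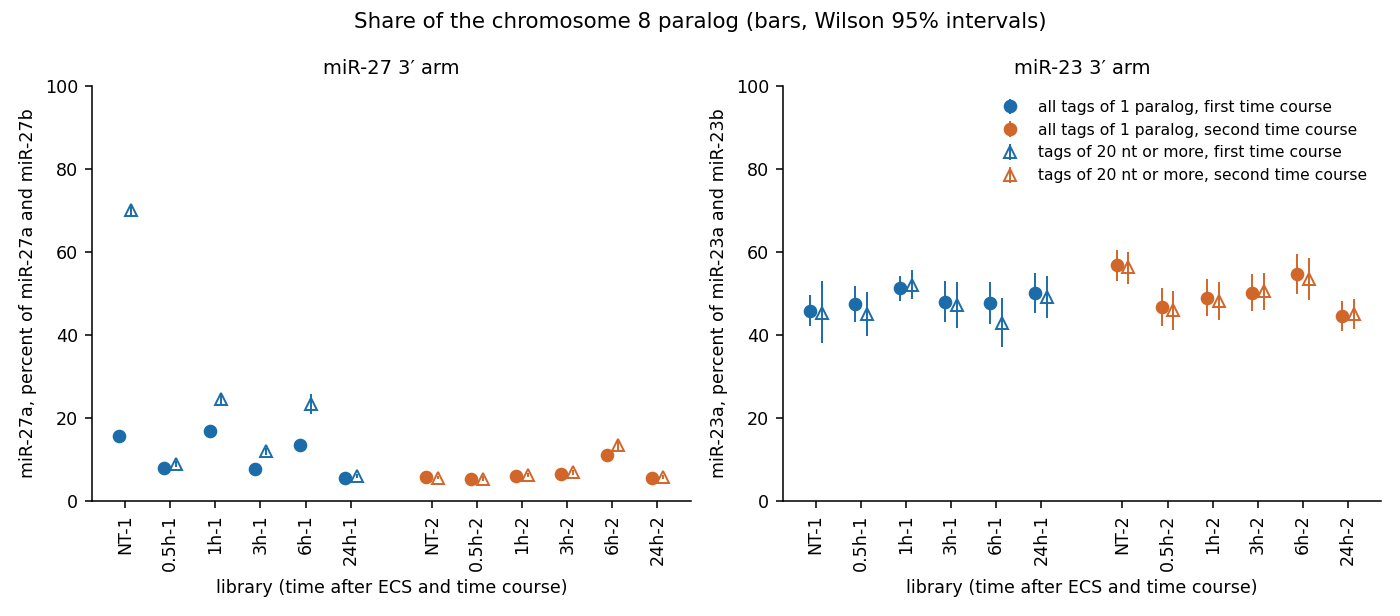
Share of miR-27a in the miR-27 3′ arm (left) and of miR-23a in the miR-23 3′ arm (right) in each library, in percent, by all tags that match 1 paralog (filled circles) and by tags of at least 20 nt (open triangles), with Wilson 95% intervals as bars. For miR-27 in NT-1 the circle lies at 15.6% and the triangle at 70.0%, whereas the miR-23 shares lie between 42.8% and 56.7%.

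The mean miR-27a share by all such tags was 11.2% ± 4.68 in the first and 6.71% ± 2.24 in the second time course (SD, n = 6 each), lower in the second in 5 of 6 pairs (exact permutation test, two-sided, p = 0.0625, adjusted p = 0.125). The miR-23a share was near the middle in every library, from 45.8% to 51.2% in the first and from 44.6% to 56.7% in the second time course, and restricting to tags of at least 20 nt gave 42.8% to 56.3%. Its means of 48.4% ± 1.96 and 50.3% ± 4.67 differed by less than the spread between libraries (p = 0.5, exact permutation test, adjusted p = 0.59). Thus the paralogs of chromosome 8 and chromosome 13 were about even for miR-23, while for miR-27 by all tags the chromosome 13 paralog led in each of the 12 libraries. The mature 3′ arm of miR-24 is the same from both clusters and could not be divided.

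The 5′ arm of miR-24, which is usually the arm that is discarded, could be divided. Over all libraries Mir24-2, on chromosome 8, had 1162 counts and Mir24-1, on chromosome 13, had 473, so that Mir24-2 made up 71.1% (Wilson 95% interval 68.8% to 73.2%). This interval covers only the counting error of the pooled counts and not the spread between libraries, whose shares ran from 35.0% to 83.3%. In the first time course its share was 72.9% in NT-1, 54.8% in 0.5h-1, 36.6% in 1h-1, 35.0% in 3h-1, 51.9% in 6h-1 and 54.5% in 24h-1. In the second it was 78.4% in NT-2, 79.9% in 0.5h-2, 83.3% in 1h-2, 82.4% in 3h-2, 56.5% in 6h-2 and 82.7% in 24h-2. Mir24-2 was above Mir24-1 in 6 of 6 libraries of the second and 4 of 6 of the first time course. Without NT-1, it was above in 3 libraries of the first, where the shares ran from 35.0% to 54.8%. In 6h-2 the share rests on 23 counts, with an interval of 36.8% to 74.4%. The cluster that held the lesser part of the miR-27 3′ arm thus held the larger part of the miR-24 5′ arm in the pooled counts, though not in 1h-1 or 3h-1.

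The antisense neighbour miR-3074 was barely seen, with 16 counts of the 5′ and 5 of the 3′ arm in all 12 libraries together and at most 5 in any of them.

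The 5′ arm of miR-23b had more counts than its 3′ arm in most libraries of the second time course and in none of the first. In the first time course the 5′ and 3′ arms had 33 and 439 counts in NT-1, 171 and 308.5 in 0.5h-1, 39 and 219.5 in 3h-1, 11 and 205 in 6h-1 and 206 and 224 in 24h-1, where a tag that matches both paralogs counts as 0.5 for each. In 1h-1 the 3′ arm had 516 counts and the 5′ arm 0.248 times as many. In the second they had 538 and 296.5 in NT-2, 318 and 248.5 in 0.5h-2, 844 and 252.5 in 1h-2, 325 and 252.5 in 3h-2, 25 and 186.5 in 6h-2 and 502 and 422 in 24h-2. The 5′ arm was above the 3′ arm in 0 of 6 libraries of the first and 5 of 6 of the second time course, with 6h-2 as the exception. The ratio of 5′ to 3′ counts ran from 0.0537 to 0.92 in the first and from 0.134 to 3.34 in the second.

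**Figure D4:**
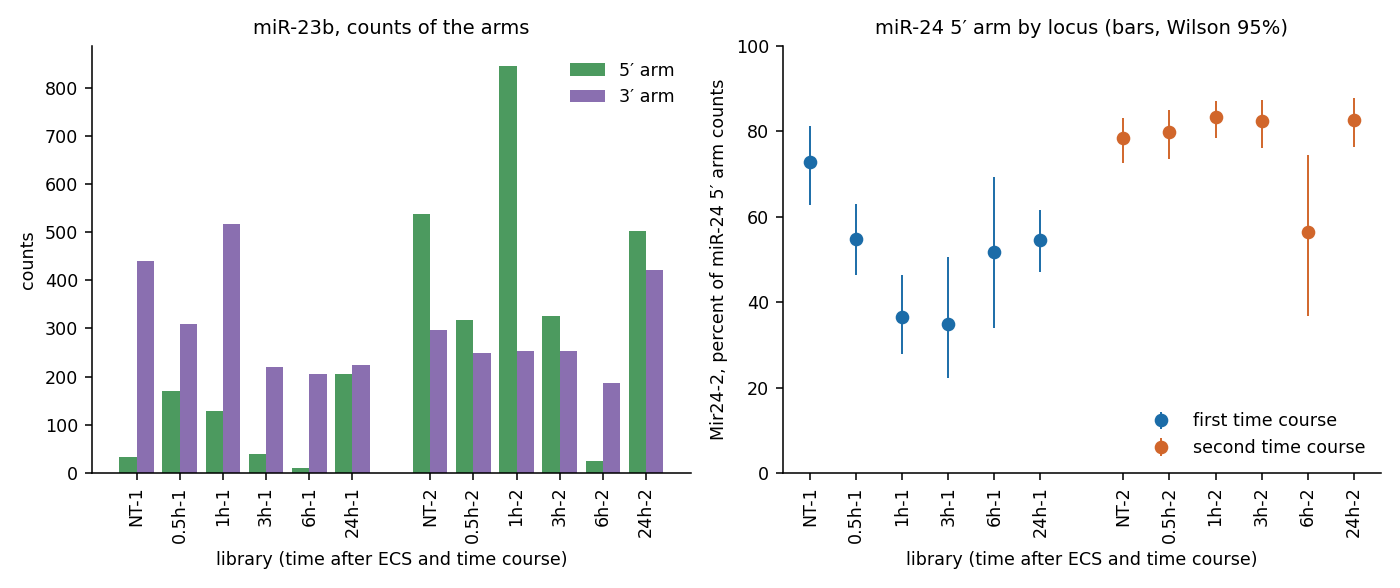
Left, counts of the 5′ and 3′ arms of miR-23b in each library, with the second time course on the right. Right, share of Mir24-2 among the counts of the miR-24 5′ arm, in percent with Wilson 95% intervals. The miR-23b 5′ arm reaches 844 counts in 1h-2, against 252.5 of the 3′ arm.

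With both paralogs summed, the 5′ arm made up 13.4% ± 11.5 of miR-23 in the first and 38.9% ± 18.6 in the second time course (SD, n = 6 each), higher in the second in 6 of 6 pairs (exact permutation test, two-sided, p = 0.03125, adjusted p = 0.0781). The 5′ arm of miR-23a added next to nothing to this, with 30 counts in 6 libraries. In miR-27 the 5′ arm made up 0.0837% ± 0.0966 and 0.303% ± 0.212 (p = 0.0938, exact permutation test, adjusted p = 0.156), and in miR-24 2.90% ± 1.86 and 2.48% ± 1.54 (p = 0.75, exact permutation test). None of these shares passed 0.05 once adjusted, and whether the families differ in arm use was not tested.

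The miR-23b 5′ arm also began at 2 places. Of its 3140 counts, 2246 began at the leading base and 888 began 1 base earlier, which moves the seed by 1 base, as the leading tag of each start shows with bases 2 to 8 in capitals.
miR-23b 5′ arm, 21 nt: gGGTTCCTggcatgctgattt
miR-23b 5′ arm, 22 nt: tGGGTTCCtggcatgctgattt
Bases 2 to 8 of the earlier start are the seed of the miR-23a 5′ arm. The earlier start made up 0% to 21.4% of the arm in the first and 21% (NT-2) to 44.0% (0.5h-2) in the second time course. The 3′ arms had steadier starts, with 97.9% of miR-23b, 98.2% of miR-23a, 98.95% of miR-27b, 99.6% of miR-27a and 99.5% of miR-24 counts at the leading base. The start of the miR-24 5′ arm was at the leading base in 97.0% of the Mir24-2 counts and 88.4% of the Mir24-1 counts.

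Counts of exact matches leave out tags with bases added at the 3′ end, and for miR-24 these were many. The mature sequence with 1 added U, shown with that base in capitals as T, matched neither miR-24 hairpin and had 19751 counts.
miR-24-3p with an added U: tggctcagttcagcaggaacagT
Of these, 110 lay in the first time course and 19641 in the second, where the 22 nt tag without it had 1666 and 23212 counts. The tag with U had 1445 counts in NT-2, 8331 in 0.5h-2, 3682 in 1h-2, 2236 in 3h-2, 525 in 6h-2 and 3422 in 24h-2, and made up 20.7% of both forms together in NT-2 and 56.9% in 0.5h-2. All 5 libraries after ECS of the second time course were above its untreated library in this share. In the first time course the shares ran from 0% in 6h-1 to 37.3% in 1h-1. NT-1 (26.4%) was above 3 of the 5 libraries after ECS. The plain tag had 6 counts in 6h-1, 40 in 3h-1, 64 in NT-1 and 89 in 1h-1, which leave little to measure. It had 637 counts in 0.5h-1 and 830 in 24h-1, where the shares were 0.933% and 0.599%. An added A was rarer, with 1171 counts.

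Counting each tag by its first 18 nt, which admits such additions, raised the miR-24 3′ arm of 0.5h-2 from 12668 to 25478 counts. The part gained by this counting was 10.4% to 19.2% of the miR-24 3′ arm in the first and 22.6% to 50.3% in the second time course. In miR-27 it was 9.77% to 19.4% and 14.4% to 35.7%, and in miR-23 13.2% to 25.3% and 17.0% to 31.97%. A single case stood out in miR-27a, whose 20 nt tag followed by an A had 539 counts in 3h-1, or 82.2 for each 100 of the plain tag, against 0.523 to 13.6 in the other 11 libraries.

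Between the time courses, edgeR's quasi-likelihood test with the time point as covariate tested 469 arms, 9 of the 10 member arms among them (the miR-23a 5′ arm was too low). Of the 469 arms 32.4% were called at an adjusted p under 0.05, 94 of them higher and 58 lower in the second time course. Among the members 1 of 9 was called, a share below that background. The called arm was the 5′ arm of miR-23b, with 50.2 ± 33.8 CPM (counts scaled to a common library size after TMM, a trimmed mean of ratios to a reference library) in the first and 126.1 ± 65.7 in the second time course (SD, n = 6 each). It was higher in the second in 5 of 6 pairs, by 1.39 ± 0.51 on the log2 scale (SE, edgeR, adjusted p = 0.0494). This call was lost in 8 of the 12 fits that left out 1 library, namely without NT-1, 1h-1, 3h-1, 24h-1, NT-2, 1h-2, 3h-2 or 24h-2, where the log2 difference was 1.10 to 1.52 (edgeR, adjusted p from 0.0736 to 0.158). With its partner of the same time left out, a library adds no pair to this comparison, though it still enters the filter and the scaling. The 8 losses are thus the untreated, 1, 3 and 24 h time points, each counted from both of its libraries. On the same log2 scale, the median difference of all arms was 0.29.

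Of the 3′ arms, none was called. miR-27a had the largest difference, with 742 ± 605 CPM in the first and 279 ± 184 in the second time course, a log2 difference of -1.36 ± 0.54 (edgeR, adjusted p = 0.0666), and it was lower in the second in 5 of 6 pairs. It was called without 6h-1 (-1.67, edgeR, adjusted p = 0.034), without 6h-2 (-1.78, edgeR, adjusted p = 0.0303) and without 24h-2 (-1.77, edgeR, adjusted p = 0.0424). The fits without 6h-1 and without 6h-2 both take the 6 h time point out of the comparison. The fit without 24h-1 takes out the same time point as that without 24h-2 and gave -1.61, with no call. Without NT-1 the difference shrank to -1.08 and without NT-2 to -1.06, and miR-27a was called in neither fit. miR-23b differed by -0.98 ± 0.48 and miR-23a by -0.87 ± 0.46 (edgeR, adjusted p = 0.121 and 0.15). miR-27b, from 5298 ± 2833 to 3408 ± 1160 CPM, differed by -0.57 ± 0.45, and miR-24, from 2265 ± 1124 to 2670 ± 1008 CPM, by 0.29 ± 0.52 (edgeR, adjusted p = 0.332 and 0.68). Of the 9 member arms 4 had a log2 difference under 0, against 42.2% of all arms.

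**Figure D5:**
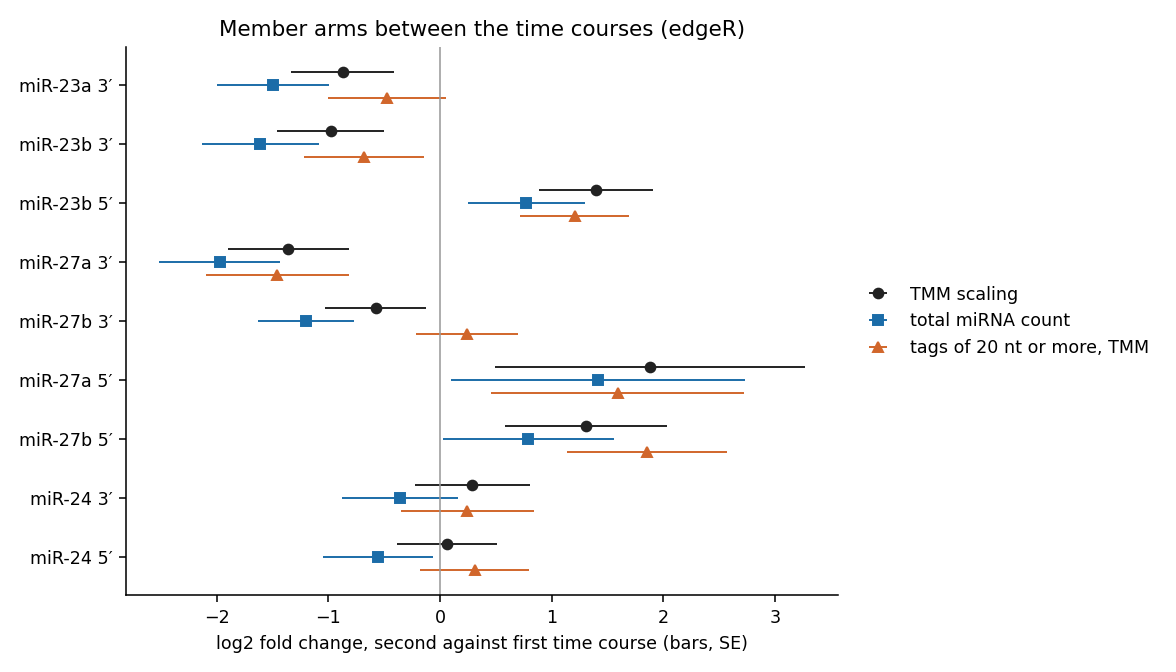
Log2 difference of each member arm, second against first time course, with its SE, under TMM scaling (black), scaling by the total miRNA count (blue) and TMM scaling of tags of at least 20 nt (orange). The miR-27b 3′ arm lies at -0.57, -1.20 and 0.24 in these fits and the miR-24 3′ arm at 0.29, -0.36 and 0.24, so the sign of both depends on the counting or the scaling.

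The scale decided how many member arms were called. Relative to the total miRNA count the median difference of all arms moved from 0.29 to -0.30, the calls over all arms turned from 94 higher and 58 lower to 49 higher and 113 lower, and 4 of 9 member arms were called, all lower, where 34.5% of all arms were called and 24.1% were called lower. These were the 3′ arms of miR-23a (-1.50 ± 0.50), miR-23b (-1.61 ± 0.52), miR-27a (-1.97 ± 0.54) and miR-27b (-1.20 ± 0.43), with adjusted p in edgeR from 0.0111 to 0.0395. The 5′ arm of miR-23b was not called on that scale (0.77 ± 0.52). DESeq2, which called 47.3% of all arms, called 3 of 9 member arms, the 5′ arm of miR-23b as higher and the 3′ arms of miR-23b and miR-27a as lower. With tags of at least 20 nt the miR-27b 3′ arm turned to 0.24 ± 0.46, and no member arm was called. The miR-24 3′ arm was called on neither scale, and the difference in tag length described above moved with all of these values without its part being tested.

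After ECS, no arm was called at any time against the untreated libraries by edgeR, with 0 of 469 arms (0%) at each of the 5 times and 0 of 9 member arms. At an unadjusted p under 0.05 there were 9, 2, 10, 9 and 7 of all arms, that is 1.92%, 0.426%, 2.13%, 1.92% and 1.49%, and no member arm. DESeq2 called 1, 0, 2, 0 and 0 of all arms and no member arm, although 1 member arm had p below 0.05 before adjustment at 0.5 h and another 1 did at 24 h. The mean of the 5 times against untreated gave 0 of 469 arms in edgeR, 24 of them (5.12%) at an unadjusted p under 0.05 and no member among these. With 2 libraries a group and untreated libraries as unlike as NT-1 and NT-2, the SE of a member's log2 difference was 0.89 or more at each time, so that differences of a few fold could not be told from 0 here.

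At every time, the member 3′ arm with the largest difference from untreated was miR-27a, by -2.19 ± 1.23, -1.44 ± 1.20, -1.26 ± 1.19, -0.90 ± 1.18 and -2.10 ± 1.22 on the log2 scale in order of time (SE, edgeR, adjusted p from 0.988 to 1.00). These values rest on NT-1. Without it the differences at 1, 3 and 6 h were 0.62, 0.80 and 1.17, and those at 0.5 and 24 h were -0.12 and -0.02. That fit sets libraries of both time courses against NT-2 alone, so the difference between the time courses enters its values. Within the second time course miR-27a was at 271 CPM in NT-2 and at 88.2, 207, 234, 631 and 244 CPM from 0.5 to 24 h, above NT-2 at 6 h only. Within the first it was at 1939 CPM in NT-1 and at 273 to 687 CPM after ECS. As percent of miRNA counts miR-27a was below the untreated library of its own time course in 5 of 5 libraries after ECS of the first and 4 of 5 of the second, and the 3′ arm of miR-27b in 5 of 5 of both. For miR-24 the numbers were 5 of 5 and 3 of 5, for miR-23a 3 of 5 and 4 of 5, and for miR-23b 4 of 5 and 3 of 5. Some of these numbers changed in CPM. miR-27b was at 4839 CPM in 6h-2, above NT-2 at 4189. In 24h-2, miR-24 (3193 against 2570) and miR-23a (116 against 99.4) lay above NT-2. In 3h-2, miR-23b did so (91.1 against 75.8). miR-23a in 1h-1 turned the other way, at 211 CPM against 238 in NT-1.

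The 10 ratios and shares were also set against untreated, over the 36 ways to choose 1 library of each time course as untreated, and none passed the test (exact permutation test, two-sided, adjusted p from 0.486 to 0.806, with 0.0278 as the smallest unadjusted p possible). The log2 ratio of miR-27 to miR-23 3′ arms was 4.52 in NT-1 and 4.67 in NT-2, and averaged 3.71 and 4.001 after ECS. The log2 ratio of miR-24 to miR-27 3′ arms was -1.67 and -0.80 in the untreated libraries and averaged -1.34 and -0.40 after ECS. Between the time courses these ratios differed by 0.26 (exact permutation test, p = 0.531) and 0.93 (p = 0.125, exact permutation test), with adjusted p of 0.59 and 0.179.

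The seed of miR-128, a neuronal miRNA, is found in miR-27 at bases 3 to 9, so that the families read related sites 1 base apart. It is printed with its own seed in capitals, above miR-27a with the same letters in capitals.
miR-128-3p: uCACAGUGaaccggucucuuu
miR-27a-3p: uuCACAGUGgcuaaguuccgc
The 3′ arm of miR-128 was far above the miR-27 pair, at 2.67% to 8.88% of the miRNA counts in the first and 3.43% to 7.07% in the second time course.

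Members aside, the arms whose levels ran most like a member 3′ arm were ranked by Pearson r of log2 percent, centred within each time course, over the 12 libraries and among the 212 arms with at least 10 counts in each. They were miR-872 5′ (r = 0.933), miR-322 5′ (0.873) and miR-126a 5′ (0.867) for miR-23a. For miR-23b they were miR-872 5′ (0.95), miR-551b 3′ (0.855) and miR-322 5′ (0.851). For miR-27a they were miR-181b 3′ (0.935), miR-411 3′ (0.931) and miR-411 5′ (0.854), and for miR-27b miR-92b 3′ (0.783), miR-181b 5′ (0.778) and miR-411 3′ (0.751). For miR-24 they were miR-448 3′ (0.854), miR-124a 3′ (0.828) and miR-3106 5′ (0.816). Both arms of a pair share each library's depth and, in NT-1, its short tags, and no p is given.

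Marker miRNAs of several cell types are set beside the members. The sums of the markers are percent of miRNA counts, while the calls are from edgeR under TMM scaling, so their directions need not match. Calls in either direction are to be read against the 32.4% of all arms called between the time courses. Calls of arms as lower in the second are to be read against 12.4% (58 of 469 arms), where 94 were called higher. The 3 vascular markers (miR-126a, miR-143 and miR-145a) summed to 6.30% to 14.5% of the miRNA counts in the first and 0.565% to 1.65% in the second time course, nearly all of it miR-143, with 2 of their 6 arms called lower in the second by edgeR. The 6 blood and immune markers (miR-451a, miR-144, miR-486, miR-142, miR-223 and miR-150) summed to 0.133% to 1.15% and 0.0379% to 0.257%. Of their 7 arms tested, 2 were called lower in the second. The highest values of single markers were 0.979% for miR-142, 0.196% for miR-144, 0.0159% for miR-486 and 0.0103% for miR-451a. Both miR-223 and miR-150 were at 0 in at least 1 library. The 2 oligodendrocyte markers (miR-219a and miR-338) summed to 0.273% to 1.40% and 0.392% to 1.82%, with 0 of 4 arms called. The 6 neuronal markers (miR-124a, miR-128, miR-129, miR-132, miR-138 and miR-9) summed to 14.5% to 31.4% and 6.37% to 16.8%, with 3 of 12 arms called, 2 of them higher in the second. The part of these cells in the members' levels was not tested.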

How the data were processed

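The authors deposited, for each of the 12 libraries, a list of distinct small RNA tags with their read counts, made with the miR-Intess pipeline from adapter-trimmed reads. Whole-number counts were used as deposited, without normalization. Tags of at least 18 nt were matched exactly over their full length, on the sense strand, to the hairpins of 1174 GENCODE M21 miRNA genes (GRCm38). The study used NCBI assembly 37, and no coordinates were carried over. Tags that match several names were split evenly.

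Arms that reached 10 counts in 2 or more libraries were tested with edgeR 4.0.16 (R 4.3.3), TMM scaling and Benjamini-Hochberg adjustment over 469 arms, after tests on simulated data. DESeq2 1.42.0, other scalings, filters and tag sets, single libraries left out and the replicate number as a block were alternatives. The replicate number marks the time course according to the study, and libraries of one number deviated together (mean r 0.511 over 15 pairs, 0.301 to 0.79). Exact permutation tests listed every arrangement, and Wilson intervals used scipy 1.17.1. The named arms were all member arms, with miR-3074, miR-128 and the 3 most alike arms of each. Members and lists were chosen with earlier results of these data known.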

Additional observations from a re-analysis of the deposited data

Results flagged for a closer look

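Of 40 groups of 6 libraries, 8 held a library far from the other 5 (Dixon's test, ratio of gap to range above 0.625). NT-1 was the library in 3 of them. For independent normal values this test flags about 1 in 20 groups, or 2 of 40. The groups share the 12 libraries and some of their measures, so 8 against 2 was not tested as an excess. As percent of miRNA counts, the 3′ arm of miR-27b was at 1.48 in NT-1 against 0.404 to 0.66 in the rest of the first time course, and that of miR-27a at 0.291 against 0.0263 to 0.114. Tags of 18 or 19 nt made up 56.2% of the miR-24 3′ arm in NT-1, against 7.19% to 17.4%. NT-1 also held the largest share of such tags over all miRNAs, 51.4%, and the part of this in the other values was not tested.

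In the second time course 6h-2 stood apart in 3 groups, with the 3′ arm of miR-23a at 0.0169% (0.00558% to 0.00905% in the others), the miR-27a share of miR-27 at 11.2% (5.24% to 6.56%) and miR-27 tags of 18 or 19 nt at 25.2% (7.91% to 10.7%). The 5′ arm of miR-24 was lowest in 3h-1, at 0.00266% against 0.00615% to 0.00802%. The 5′ arm of miR-23a was highest in 24h-1, at 0.000225% against 0% to 5.7e-05%, which rests on a few counts.

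The miR-23a share of the miR-23 3′ arm was higher after ECS than in NT-1 by 3.11 percentage points on average and lower than in NT-2 by a mean difference of -7.74, with every library on its side. The gap of -10.8 points was not tested.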

How the results depend on the processing

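One member arm was called between the time courses, the miR-23b 5′ arm. The number was 4 with scaling by the total miRNA count, 3 with DESeq2, and 0 with no filter on low counts, with tags that match 1 miRNA or with tags of at least 20 nt (edgeR). It was 0 to 2 over the fits that left out 1 library. Without the time point as covariate the number stayed at 1 but the arm was miR-27a 3′ (edgeR, adjusted p = 0.0479), not miR-23b 5′ (0.06). Directions turned for the 3′ arm of miR-27b with tags of at least 20 nt (0.24), for the 3′ arm of miR-24 with the total count (-0.36), and for the 5′ arm of miR-24 with the total count (-0.56), tags of 1 miRNA (-0.11) and the first 18 nt (-0.030). The log2 ratio of miR-24 to miR-27 after ECS turned to -0.0021 with tags of at least 20 nt. The causes were not tested.

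Leaving out 1 library gave 0 to 0 member arms called at each time after ECS and over all times. Between the time courses, a library left out took its partner of the same time out of the comparison as well. There the ranges were -1.21 to 0.273 points for the miR-24 5′ share, -0.0016 to 0.41 for the log2 ratio of miR-27 to miR-23, -0.27 to 0.21 for the miR-24 5′ arm and -0.083 to 0.49 for its 3′ arm. After ECS, leaving out 1 library gave -7.74 to 3.11 points for the miR-23a share, -5.21 to 1.24 for the miR-27a share, -6.15 to 11.4 for the miR-23 5′ share, and for tags of 18 or 19 nt -50.8 to 0.226 in miR-23, -43.9 to 3.35 in miR-27 and -44.3 to 0.356 in miR-24. For these shares, a time course without its untreated library dropped out whole. Both ends of each of these ranges are therefore 1 time course alone. For the log2 difference of miR-27a against untreated, leaving out 1 library gave -3.65 to -0.12 at 0.5 h, -2.46 to 0.62 at 1 h, -2.74 to 0.80 at 3 h, -1.71 to 1.17 at 6 h and -2.91 to -0.02 at 24 h. The upper end of each of these log2 ranges came from leaving out NT-1, which sets both time courses against NT-2 alone.

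With the replicate number as a block, 0 member arms were called at any time after ECS, and miR-27a lay at -2.08, -1.21, -1.03, -0.28 and -1.55 from 0.5 to 24 h (edgeR, adjusted p from 0.691 to 0.999), so the block changed no call. Between the time courses the replicate number is what was compared, and there the libraries were paired by time point. With 2 libraries a group, the spread between libraries and not the depth set the precision of the abundant 3′ arms, while the 5′ arms of miR-23a, miR-27a and miR-27b rest on few counts.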
